A study of Mus musculus with 12 samples.

Results

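Insulin-like growth factor (IGF) genes were followed as a family of 10 members in the cerebellum of a mouse model of spinocerebellar ataxia type 1. The 10 members are the ligands Igf1 and Igf2, the receptors Igf1r and Igf2r, and the binding proteins Igfbp2 to Igfbp7. They were matched by Ensembl identifier and are 10 of the 55401 gene rows of the deposited tables. All 10 had enough reads to be among the 19378 genes tested. The family was chosen by the measured level of Igfbp5, which is low in the knock-in libraries, so the Igfbp5 values are given as a description, without a test.

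Each of the 12 libraries came from the cerebellum of 1 mouse, and there were 3 groups of 4. Knock-in mice (Het) carry 1 Atxn1 allele with an expanded CAG tract coding for 154 glutamines and 1 allele with 2, in every cell that expresses Atxn1. The Het DMSO group received only the solvent dimethyl sulfoxide (DMSO), the Het Hit 2 group received the compound Hit 2 in DMSO at 25 mg/ml, and the wild-type (WT DMSO) group received DMSO. Intraperitoneal injection was daily for 5 days and, after 2 days of rest, daily for 5 more, with mice aged 18 weeks at the start and 20 weeks at the end, so no group went without DMSO. The series asks whether compounds aimed at expanded CAG repeats lower such RNAs. Libraries are named here by animal number: 413, 425, 426 and 431 for WT DMSO, 409, 411, 420 and 429 for Het DMSO, and 410, 421, 422 and 430 for Het Hit 2.

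IGF1 and IGF2 are secreted proteins that act through IGF1R, a receptor tyrosine kinase that feeds the PI3K-AKT-mTOR and MAP kinase cascades. IGF2R, also the cation-independent mannose 6-phosphate receptor, binds IGF2 and carries it to lysosomes, which clears it. The IGFBP proteins hold IGFs outside the cell and thereby prolong their life or keep them from the receptor, and proteases that cut IGFBPs set the ligand free. In the developing and adult cerebellum, IGF1 is known as a survival factor of Purkinje and granule neurons, and lower Igfbp5 RNA has been described before in mouse models of this ataxia.

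Depth ranged from 15855751 to 45265719 reads assigned to genes per library. A pair of libraries, 411 and 409, stood apart and touch several members. Library 411 had the lowest level of each of 8 granule cell genes and of most of 11 Purkinje cell genes. Pcp2 (Purkinje cells) was at 0.555 CPM (reads scaled to a common library size) there and Gabra6 (granule cells) at 0.606 CPM. The dopaminergic gene Slc6a3 was at 36.2 CPM. Of the Purkinje cell genes, Pcp4 was lowest in library 409 (1.97 CPM, against 13.9 in 411) and Gad1 in library 429 (260 CPM, against 282 in 411). The summed level of 8 granule cell genes was 84.9 CPM in library 411 and 3552 to 7753 CPM in the other 11 libraries. Library 409 had 0.0795% of its gene reads on mitochondrial genes, against 1.85% to 2.81% in the others. Xist was above 10 CPM in the WT libraries 425 and 426 and in no other library. Some differences of single genes between Het DMSO and the other groups moved by over 1.5 times or changed sign without both libraries. Where printed below, these are given with and without the 2 libraries. Medians over several genes are of all 12 libraries unless stated otherwise.

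Igfbp5 (the gene that chose the family), its neighbour Igfbp2 and Igfbp4, the one member with Het DMSO libraries all above WT, are shown with the 250 bases before an annotated start to let their promoters be compared (RefSeq, build GRCm38.p6, read 5′ to 3′ on the gene's strand). Capitals mark matches, on either strand, to 4 motifs. They are the TATA box, written TATAAA, a variant of it searched after the Igfbp5 sequence was seen, written TATTTAA, the GC box, written GGGCGG, and the CCAAT box, written CCAAT.
Igfbp5, chr1:72874866-72875115, minus strand: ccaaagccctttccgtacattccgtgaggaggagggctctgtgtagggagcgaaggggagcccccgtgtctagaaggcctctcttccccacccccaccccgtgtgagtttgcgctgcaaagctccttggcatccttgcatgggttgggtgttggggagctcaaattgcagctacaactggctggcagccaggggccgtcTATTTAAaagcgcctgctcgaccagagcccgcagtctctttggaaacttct
Igfbp4, chr11:99040994-99041243, plus strand: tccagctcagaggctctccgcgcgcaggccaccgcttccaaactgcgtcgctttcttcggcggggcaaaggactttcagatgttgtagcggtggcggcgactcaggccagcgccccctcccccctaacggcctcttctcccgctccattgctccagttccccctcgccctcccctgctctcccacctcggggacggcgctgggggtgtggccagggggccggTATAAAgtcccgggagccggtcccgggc
Igfbp2, chr1:72824230-72824479, plus strand: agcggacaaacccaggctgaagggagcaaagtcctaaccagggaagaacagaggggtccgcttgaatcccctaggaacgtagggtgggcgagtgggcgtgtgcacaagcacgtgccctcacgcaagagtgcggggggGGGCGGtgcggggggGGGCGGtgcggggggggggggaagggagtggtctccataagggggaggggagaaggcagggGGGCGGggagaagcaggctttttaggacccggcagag
The Igfbp5 window holds TATTTAA 51 bases before the start, and the Igfbp4 window holds TATAAA 28 bases before it. The Igfbp2 window shown, that of the first of 2 annotated starts, has neither and holds GGGCGG at 113, 98 and 37 bases before the start, and the window of the second start (chr1:72825137-72825386) holds none of the motifs. Of 32851 annotated mouse promoter windows of this length, 4.18% hold the variant, 12.4% the TATA box, 32.7% the GC box and 33.8% the CCAAT box. The octamers TGAATGAA, TGAATGGA, TCAATGAA and TCAATGGA, known as binding sequences of Capicua, a repressor that binds the Atxn1 protein, occur in 3.19% of the windows and in none of those of the 10 members.

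Igf1, the ligand that acts through Igf1r, lies on chromosome 10 from 87858265 to 87937042 (coordinates throughout are those of GRCm38 in the GENCODE M21 annotation). It was read at 5.57, 4.74, 4.71 and 5.19 CPM in WT libraries 413, 425, 426 and 431. In Het DMSO it was at 1.72, 7.52, 5.17 and 4.42 CPM in libraries 409, 411, 420 and 429, and in Het Hit 2 at 5.62, 5.83, 5.29 and 4.83 CPM in libraries 410, 421, 422 and 430. The 2 libraries that stand apart, 409 and 411, were the lowest and the highest of all 12, and the groups overlapped. Het DMSO minus WT DMSO was -0.11 on the log2 scale (standard error 0.33, adjusted p = 0.907, edgeR quasi-likelihood test over all genes), and it was 0.17 without library 409, -0.43 without 411 and -0.09 without both.

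Igf2, the second ligand, is on chromosome 7 from 142650766 to 142666816. Its levels were 2.03, 4.01, 2.01 and 2.82 CPM in WT DMSO, 0.370, 0.202, 3.36 and 4.21 CPM in Het DMSO, and 3.24, 1.63, 1.52 and 1.97 CPM in Het Hit 2, with the libraries in the order given for Igf1. Libraries 409 and 411 were the lowest of all 12, with 15 and 4 reads, while the other Het DMSO libraries were at the level of the highest WT library or near it. Het DMSO minus WT DMSO was -0.43 (standard error 0.73, adjusted p = 0.818) with all libraries and 0.47 (adjusted p = 1.00) without 409 and 411, edgeR in both cases. Without library 429, the highest, it was -1.10 (adjusted p = 0.461, edgeR), and Het Hit 2 minus Het DMSO went from 0.04 to 0.71. Igf2 shares its strand and position with Gm49394, which had at most 3 reads in a library.

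The receptor Igf1r, on chromosome 7 from 67952827 to 68233668, was read at 234, 277, 297 and 280 CPM in WT DMSO, 412, 207, 279 and 295 CPM in Het DMSO, and 263, 314, 284 and 267 CPM in Het Hit 2. Igf2r, on chromosome 17 from 12682406 to 12769664, was at 183, 171, 185 and 171 CPM in WT DMSO, 326, 101, 171 and 182 CPM in Het DMSO, and 158, 180, 193 and 170 CPM in Het Hit 2. For both receptors library 409 was the highest of all 12 and library 411 the lowest, and the other 10 libraries lay within 234 to 314 CPM for Igf1r and 158 to 193 CPM for Igf2r. The fitted differences of Het DMSO minus WT DMSO were 0.13 for Igf1r (standard error 0.18, adjusted p = 0.769, edgeR) and 0.14 for Igf2r (standard error 0.26, adjusted p = 0.841, edgeR). Without library 409 they were -0.07 for Igf1r and -0.23 for Igf2r, without library 411 they were 0.30 and 0.38, and without both 0.07 and -0.02. Airn is transcribed antisense to Igf2r at 126 to 1974 reads per library. Reads on the strand opposite to Igf2r made up 1.90% to 4.50% of those on both strands, and the counts used here are strand-specific.

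The ligand Igf1 and the receptors took opposite places in these libraries. Across 12 libraries the log2 CPM of Igf1 correlated with that of Igf1r at r = -0.86 and with that of Igf2r at r = -0.90, and the receptors with each other at r = 0.90. Without 409 and 411 (n = 10) the coefficients were -0.22, -0.14 and 0.24, so the relations rest on those 2 libraries. All genes of a library share its depth and composition, so these coefficients are descriptions.

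**Figure D1:**
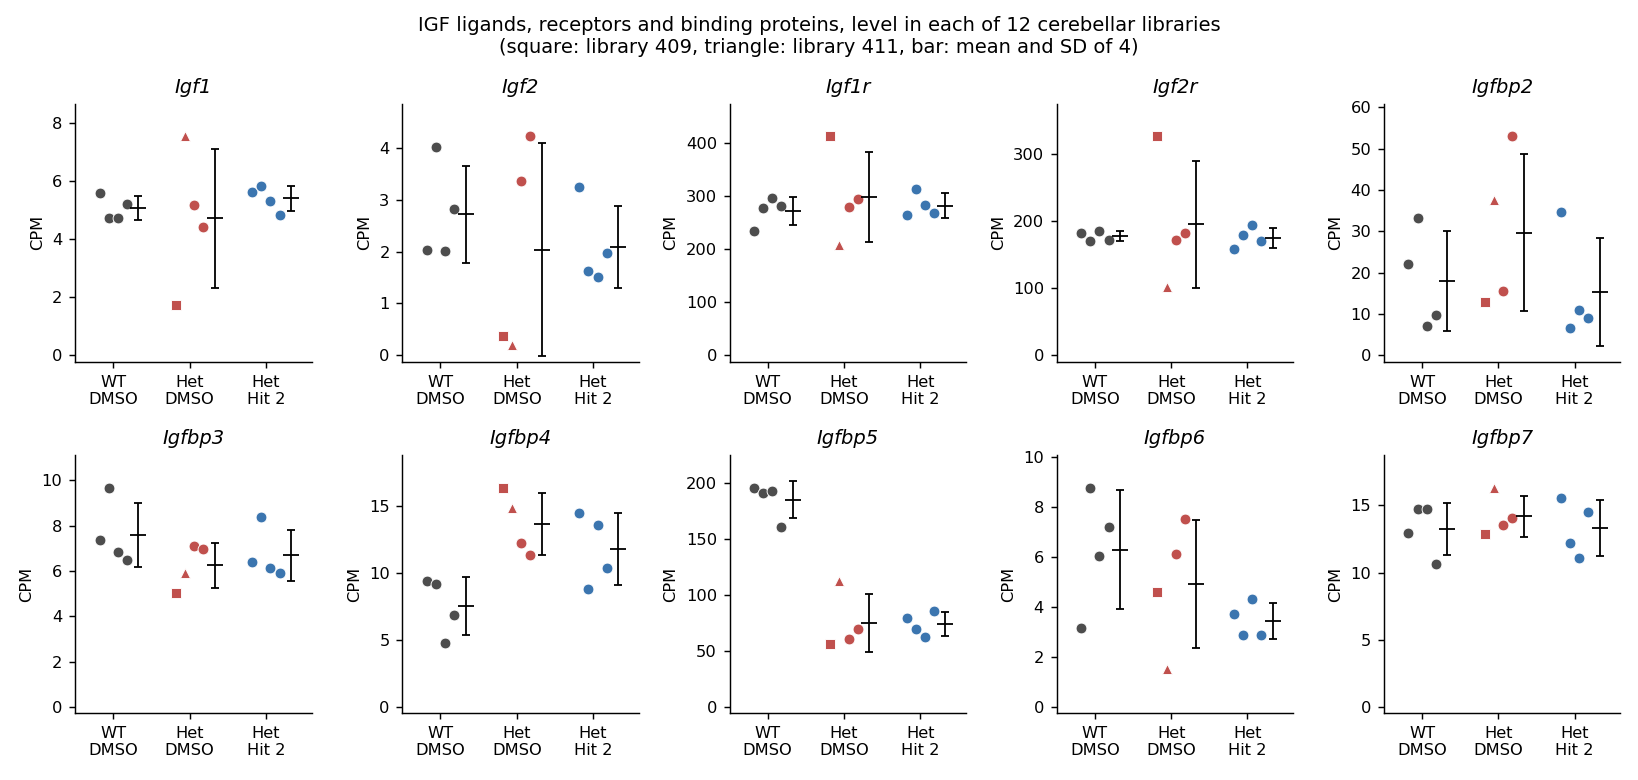
Level of each of the 10 IGF genes in every library, in CPM on a linear axis, 1 panel per gene with its own scale; each point is a library, with 409 as a square and 411 as a triangle, and bars show the group mean ± SD of 4 libraries. All 8 Het libraries of Igfbp5 (56.7 to 113 CPM) sit below all WT libraries (161 to 196 CPM), whereas libraries 409 and 411 take opposite ends for Igf1, Igf1r and Igf2r.

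Igfbp5, the binding protein whose low level in Het mice chose the family, is on chromosome 1 from 72857932 to 72874884 (minus strand, ENSMUSG00000026185). Its level was 196, 192, 193 and 161 CPM in WT libraries 413, 425, 426 and 431. It was 56.7, 113, 60.9 and 70.1 CPM in Het DMSO libraries 409, 411, 420 and 429, and 79.7, 69.2, 62.2 and 85.5 CPM in Het Hit 2 libraries 410, 421, 422 and 430. Every Het library was below every WT library, and the highest Het library was 411, the one with the lowest Purkinje and granule cell sums. The depth behind the values was 979 to 8139 reads per library.

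The group means of Igfbp5 were 186 ± 16.4 CPM in WT DMSO, 75.05 ± 25.6 in Het DMSO and 74.2 ± 10.4 in Het Hit 2 (SD, n = 4 each). The Het DMSO mean was 40.5% of the WT mean and the Het Hit 2 mean 40.0%. Without libraries 409 and 411 the Het DMSO mean was 35.3% of the WT mean. Single Het libraries lay between 30.6% (409) and 60.6% (411) of the WT mean. On the log2 scale the fitted difference was -1.31 for Het DMSO minus WT DMSO and -1.32 for Het Hit 2 minus WT DMSO. These comparisons share the 4 WT libraries. Of all genes tested, 1.18% had every Het library below every WT library, the pattern for which Igfbp5 was chosen, and nothing is read from that share. With only libraries without Xist in the fit, the differences were -1.26 and -1.27.

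Between the Het groups, Igfbp5 in Het Hit 2 minus Het DMSO was -0.02 on the log2 scale. The pattern that chose the gene included the Het Hit 2 libraries, so this value too is a description and has no test. The Het Hit 2 libraries spanned 62.2 to 85.5 CPM, inside the span of the Het DMSO libraries, and no member had Het groups without overlap, which 0.392% of all genes had with Het Hit 2 lower and 0.635% with it higher. The difference was 0.22 without library 411, -0.13 without library 409 and 0.17 without both. In bulk tissue, fewer cells that express a gene and less of its RNA per cell cannot be told apart.

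Igfbp2, which encodes an IGF-binding protein made by choroid plexus epithelium and glia, lies tail to tail with Igfbp5 on chromosome 1 (72824503 to 72852474), with 5457 bases between the gene ends. Its levels were 22.1, 33.1, 7.06 and 9.76 CPM in WT DMSO, 12.9, 37.6, 15.5 and 53.0 CPM in Het DMSO, and 34.8, 6.67, 11.1 and 8.96 CPM in Het Hit 2. High and low libraries occurred in each group, and the groups overlapped. Het DMSO minus WT DMSO was 0.72 (standard error 0.64, adjusted p = 0.667, edgeR), and Het Hit 2 minus Het DMSO was -0.96 (standard error 0.64, 95% interval -2.36 to 0.45, adjusted p = 0.898, edgeR). Without libraries 409 and 411 these were 0.92 and -1.18, and without 429, the library with the highest Igfbp2, 0.28 and -0.52.

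Igfbp2 followed the choroid plexus genes. The summed level of 8 choroid plexus genes (Ttr, Folr1, Kl, Clic6, Kcnj13, Otx2, Aqp1 and Slc4a5) was 691 and 1116 CPM in WT libraries 413 and 425, and 41.6 and 34.0 CPM in 426 and 431. In Het DMSO it was 26.9 (409), 175 (411), 60.9 (420) and 1954 CPM (429), and in Het Hit 2 it was 958 CPM in library 410 and 16.2 to 29.1 CPM in the other 3. The 5 libraries with the highest Igfbp2 were the 5 with the highest choroid plexus sum. Log2 CPM of Igfbp2 and the log2 sum correlated at r = 0.88 and rho = 0.80 over 12 libraries, and at r = 0.94 over the 10 without 409 and 411. Folr1, a choroid plexus folate receptor, was at 0 in libraries 431, 409 and 422. The part of choroid plexus RNA in the Igfbp2 values was not tested.

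Igfbp4, a binding protein whose hold on IGFs is released by the protease PAPP-A, is on chromosome 11 from 99041244 to 99054392. It was at 9.38, 9.16, 4.79 and 6.89 CPM in WT DMSO, 16.4, 14.8, 12.3 and 11.3 CPM in Het DMSO, and 14.5, 8.80, 13.6 and 10.4 CPM in Het Hit 2. All 4 Het DMSO libraries were above all 4 WT libraries, as was the case for 1.94% of all genes tested, while Het Hit 2 overlapped with WT DMSO through library 421. The means were 7.56 ± 2.16 CPM in WT DMSO, 13.7 ± 2.32 in Het DMSO and 11.8 ± 2.69 in Het Hit 2 (SD, n = 4 each).

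The Igfbp4 difference did not pass the threshold over all genes. Het DMSO minus WT DMSO was 0.86 (standard error 0.24, unadjusted p = 0.00387, adjusted p = 0.616, edgeR), with an exact permutation p of 0.0286, the smallest that 4 against 4 libraries can give. Without libraries 409 and 411 it was 0.63 (adjusted p = 0.819, edgeR). Het Hit 2 minus WT DMSO was 0.65 (standard error 0.24, unadjusted p = 0.0198, adjusted p = 1.00, edgeR). Het Hit 2 minus Het DMSO was -0.21 (standard error 0.24, adjusted p = 0.898, edgeR). Igfbp4 correlated with the summed level of 8 astroglia genes at r = -0.63, of 8 microglia genes at r = 0.62 and of 11 Purkinje cell genes at r = -0.49 (n = 12). Without 409 and 411 these were -0.59, 0.53 and -0.68 (n = 10), and the part of cell composition in the Igfbp4 values was not tested.

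Igfbp6, a binding protein that prefers IGF2 over IGF1, is on chromosome 15 from 102144362 to 102149511. It was at 3.14, 8.76, 6.04 and 7.21 CPM in WT DMSO, 4.58, 1.51, 6.10 and 7.51 CPM in Het DMSO, and 3.71, 2.87, 4.32 and 2.86 CPM in Het Hit 2. The Het Hit 2 libraries were low together but overlapped with WT library 413. Het Hit 2 minus WT DMSO was -0.87 (standard error 0.43, unadjusted p = 0.0656, adjusted p = 1.00, edgeR), and Het DMSO minus WT DMSO was -0.35 (standard error 0.42, adjusted p = 0.740, edgeR). The latter was 0.10 without libraries 409 and 411.

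Igf2 and Igfbp6 followed the genes of the leptomeninges, the membranes that cover the cerebellum. The summed level of 8 leptomeningeal genes (Dcn, Lum, Col1a1, Col1a2, Col3a1, Slc6a13, Slc22a6 and Aldh1a2) was 88.5 to 137 CPM in WT DMSO, 47.8 to 141 CPM in Het DMSO and 78.0 to 130 CPM in Het Hit 2, and library 411 was the lowest. Over 12 libraries it correlated with Igf2 at r = 0.74 and with Igfbp6 at r = 0.81, and over the 10 without 409 and 411 at 0.84 and 0.63. Library 409 went against this for Igf2, which was at 0.370 CPM beside a leptomeningeal sum of 104 CPM. Igf2 also correlated with the choroid plexus sum, at r = 0.37 and rho = 0.71 over 12 libraries. Without 409 and 411 this was r = 0.72 and rho = 0.92, beside a rho of 0.79 with the leptomeningeal sum, so the relation of Igf2 was not particular to leptomeninges. None of the 8 leptomeningeal genes was at 0 in any library. The part of leptomeningeal or choroid plexus RNA in these members was not tested.

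**Figure D2:**
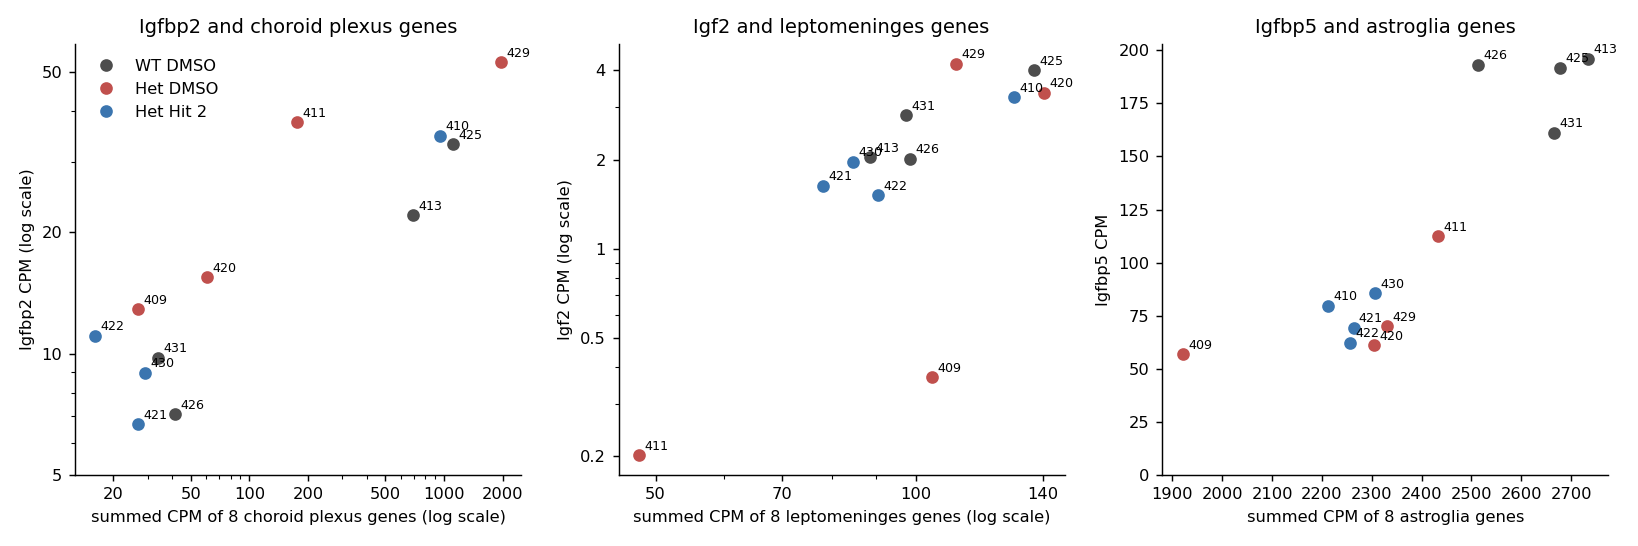
Members against summed cell type markers in each of 12 libraries, named by animal number and coloured by group: Igfbp2 (CPM) against 8 choroid plexus genes and Igf2 (CPM) against 8 leptomeningeal genes on log axes, and Igfbp5 (CPM) against 8 astroglia genes on linear axes. Igfbp2 is 22.1 CPM or more in the 5 libraries with the highest choroid plexus sums, and for Igfbp5 the 4 WT libraries are apart from the 8 Het libraries on both axes.

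Igfbp3, the main carrier of IGFs in blood, is on chromosome 11 from 7206086 to 7213923. It was at 7.35, 9.66, 6.85 and 6.49 CPM in WT DMSO, 5.00, 5.91, 7.09 and 6.97 CPM in Het DMSO, and 6.37, 8.35, 6.12 and 5.91 CPM in Het Hit 2. The groups overlapped, and Het DMSO minus WT DMSO was -0.28 (standard error 0.19, adjusted p = 0.626, edgeR) and -0.12 without libraries 409 and 411. Igfbp7, a secreted relative that binds IGFs weakly and is made by blood vessels, is on chromosome 5 from 77349240 to 77408041. It lay between 10.6 and 16.3 CPM in all 12 libraries, at 12.9, 14.7, 14.8 and 10.6 CPM in WT DMSO, 12.8, 16.3, 13.5 and 14.1 CPM in Het DMSO, and 15.6, 12.2, 11.1 and 14.5 CPM in Het Hit 2. Its differences were 0.10 for Het DMSO minus WT DMSO and -0.09 for Het Hit 2 minus Het DMSO (standard error 0.16 each, adjusted p = 0.814 and 0.906, edgeR), and 0.04 and -0.05 without libraries 409 and 411. Igfbp7 correlated with 8 genes of mural cells, the muscle cells and pericytes of vessels, at r = 0.78 (n = 12) and 0.73 without 409 and 411.

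As a family, the 9 members other than Igfbp5 gave no call in any comparison. For Het DMSO minus WT DMSO, 0 of 9 passed an adjusted p of 0.05 in edgeR, against 0.00516% of all genes tested (1 gene). At an unadjusted p under 0.05, 1 of 9 (Igfbp4) was below the threshold, against 7.11% of all genes. For Het Hit 2 minus Het DMSO, 0 of 9 passed, against 0.00% of all genes tested, and 0 of 9 were under an unadjusted p of 0.05, against 1.55% of all genes. For Het Hit 2 minus WT DMSO, 0 of 9 passed, against 0.00516% of all genes tested, and 1 of 9 (Igfbp4) was under an unadjusted p of 0.05, against 1.71%. The median fitted difference over the members tested was 0.10, -0.09 and -0.02 in these comparisons, beside 0.05, -0.04 and 0.02 over all genes. DESeq2, fitted to the same counts, also called none of these.

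The width of the intervals for Het Hit 2 minus Het DMSO differed between members. For Igf1r, Het Hit 2 minus Het DMSO was -0.08 with a 95% interval of -0.48 to 0.32, and for Igfbp7 the interval was -0.44 to 0.26. For Igf2 it was far wider, -1.56 to 1.65, and for Igfbp6 it was -1.45 to 0.42. Igf1 (-0.52 to 0.93), Igf2r (-0.73 to 0.42), Igfbp3 (-0.32 to 0.53) and Igfbp4 (-0.73 to 0.31) lay between. All of these intervals include 0. Without libraries 409 and 411 the difference went from 0.04 to -0.88 for Igf2, from -0.51 to -0.98 for Igfbp6, from 0.10 to -0.08 for Igfbp3 and from -0.21 to 0.00 for Igfbp4, with an adjusted p of 0.983 or more (edgeR). For Igf1, Igf1r and Igf2r it was 0.17, -0.03 and -0.01 without both.

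**Figure D3:**
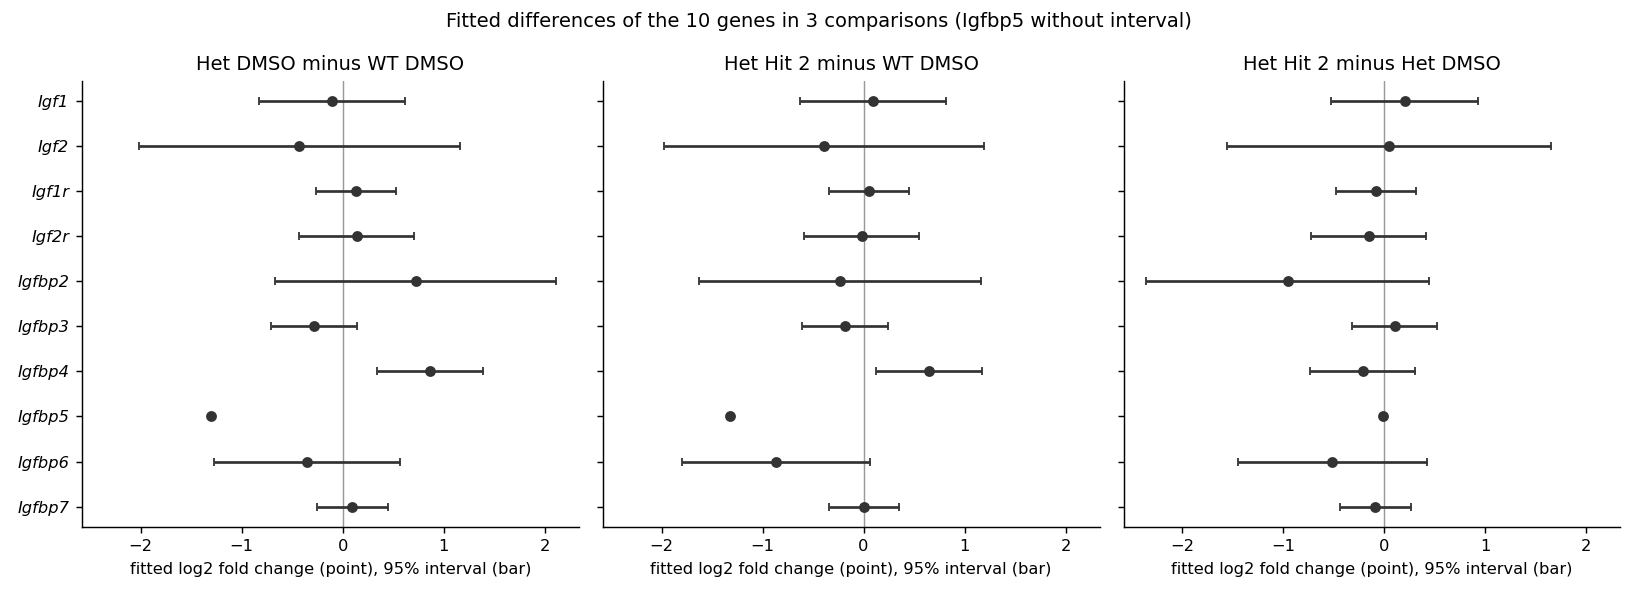
Fitted log2 fold change of the 10 IGF genes in 3 comparisons, with bars for the 95% interval of the edgeR fit over all 12 libraries, left out for Igfbp5, which chose the family; the line at 0 marks equal levels. Igfbp5 is at -1.31 and -1.32 against WT DMSO and at -0.02 between the Het groups, and every interval of the other 9 members crosses 0 except those of Igfbp4 against WT DMSO.

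Levels can be compared between members only per length of transcript. As reads per kilobase of annotated exon and scaled to library size (RPKM), Igfbp5 was the highest member in WT DMSO at 30.9, followed by Igf2r at 19.1, Igf1r at 16.2, Igfbp7 at 10.95 and Igfbp2 at 9.75. Igfbp6 at 5.65, Igfbp3 at 2.42, Igfbp4 at 1.71, Igf1 at 0.510 and Igf2 at 0.475 came after. In WT DMSO the ranges over libraries did not overlap between Igfbp5 and Igf2r, Igf2r and Igf1r, Igf1r and Igfbp7, or Igfbp4 and Igf1, and all other neighbours in this order overlapped. Neighbours traded places with the length used: with the longest annotated transcript, Igf1r (23.8) was above Igf2r (20.0) and Igfbp2 (13.8) above Igfbp7 (11.04) in WT DMSO.

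Igfbp5 was the first of the 10 in WT DMSO, the fourth in Het DMSO and the third in Het Hit 2 by mean RPKM. Its mean was 12.5 RPKM in Het DMSO, behind Igf2r (20.95), Igf1r (17.8) and Igfbp2 (16.1), whose ranges overlapped with their neighbours in that group. The fourth place depended on library 411 (18.7 RPKM). In Het DMSO libraries 420 and 429, Igfbp5 was at 10.1 and 11.7 RPKM and Igfbp7, the fifth, at 11.2 and 11.6. In Het Hit 2 the mean of Igfbp5 was 12.3 RPKM, behind Igf2r (18.8) and Igf1r (16.8) and with a range that overlapped that of Igfbp7 (11.03). In each group the ligands were the last of the order, both under 1 RPKM as group means.

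**Figure D4:**
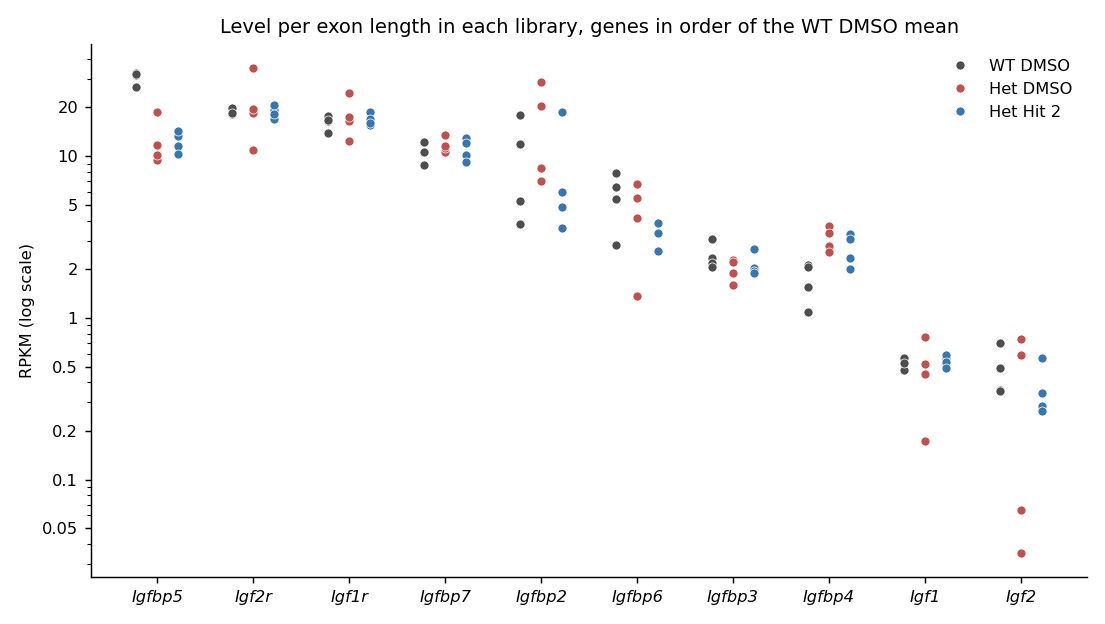
Level per transcript length (RPKM, log axis) of the 10 IGF genes in each library, ordered by their mean in WT DMSO and coloured by group. Igfbp5 leads in WT DMSO (30.9 RPKM) and lies among Igf1r, Igf2r, Igfbp7 and Igfbp2 in the Het groups (12.5 and 12.3 RPKM), while Igf1 and Igf2 are the lowest in all 3 groups.

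Igfbp5 was also set beside the cell types of the cerebellum. The summed level of 8 astroglia genes (Aqp4, Gfap, Slc1a3, Slc1a2, Aldh1l1, Gdf10, S100b and Hopx) was 2513 to 2734 CPM in WT DMSO, 1921 to 2433 in Het DMSO and 2212 to 2306 in Het Hit 2. All Het libraries were below all WT libraries in this sum. The Het DMSO mean was 84.9% and the Het Hit 2 mean 85.4% of the WT mean, against 40.5% and 40.0% for Igfbp5. Gene by gene, only Slc1a3 (709 to 841 CPM in WT DMSO, 179 to 684 in Het) and, narrowly, Gdf10 had this pattern. The other genes of the list overlapped, among them the most abundant, Slc1a2 (1077 to 1316 CPM in WT DMSO, 724 to 1835 in Het). Igfbp5 correlated with this sum at r = 0.88 and rho = 0.87 over 12 libraries and at r = 0.92 without 409 and 411, a description over groups that are apart in both measures. In library 411, which had the highest Igfbp5 and the highest astroglia sum of the Het libraries (2433 CPM), the genes of the list differed: Slc1a2, a glutamate transporter, was the highest of all 12 libraries at 1835 CPM, and Gdf10, a gene of Bergmann glia, the lowest at 1.62 CPM.

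The 11 Purkinje cell genes summed to 7554 to 7904 CPM in WT DMSO, 929 to 6675 in Het DMSO and 3567 to 6706 in Het Hit 2, so that these groups too did not overlap with WT DMSO. Igfbp5 correlated with the Purkinje sum at r = 0.14 over 12 libraries and 0.64 over the 10 without 409 and 411, and with the granule cell sum at -0.07 and 0.32. Igfbp5 in library 411, with its Purkinje sum of 929 CPM, was 60.6% of the WT mean. A list of 6 midbrain and forebrain genes, led by Th, which Purkinje cells also transcribe, summed to 13.4 to 22.9 CPM in WT DMSO, 7.38 to 13.1 in Het Hit 2 and 6.65 to 10.7 in Het DMSO other than library 411 (71.5 CPM), and correlated with Igfbp5 at r = 0.56 and, without 409 and 411, 0.84. The part of these cell types in the Igfbp5 difference was not tested.

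Among 12443 genes of at least 5 CPM compared, the 5 whose log2 CPM followed that of Igfbp5 most closely over the 12 libraries were Ywhah (r = 0.913), which encodes a 14-3-3 adaptor protein, Ipo5 (0.895), which encodes a nuclear import receptor, Cntnap5b (0.884), Clstn2 (0.877), which encodes a synaptic calsyntenin, and Muc3a (0.873). Their means in WT DMSO, Het DMSO and Het Hit 2 were 404, 274 and 289 CPM for Ywhah and 131, 110 and 101 CPM for Ipo5. They were 44.3, 29.9 and 28.9 CPM for Cntnap5b, 114, 70.8 and 51.1 CPM for Clstn2, and 11.99, 3.85 and 5.99 CPM for Muc3a. The WT and Het libraries did not overlap for Ywhah, Clstn2 and Muc3a and overlapped for Ipo5 and Cntnap5b. Within the 8 Het libraries alone the coefficients were 0.351 for Ywhah, 0.720 for Ipo5, 0.780 for Cntnap5b, 0.381 for Clstn2 and 0.540 for Muc3a. They were picked for their likeness, so the coefficients carry no test.

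Around the members, 19 genes of IGF availability (other binding proteins, insulin receptors, proteases and their inhibitors, and IGF2 mRNA-binding proteins) were examined, of which 14 had enough reads to be tested. None of the 14 was called in any of the 3 comparisons, with a smallest adjusted p of 0.616, 0.898 and 1.00 (edgeR), beside the shares of all genes given above. Their median difference was 0.07 for Het DMSO minus WT DMSO, -0.08 for Het Hit 2 minus Het DMSO and 0.00 for Het Hit 2 minus WT DMSO. The first of these was 0.04 without libraries 409 and 411.

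Stc2, which encodes stanniocalcin 2, an inhibitor of the IGFBP protease PAPP-A, was at 3.26 ± 0.312 CPM in WT DMSO, 2.07 ± 0.302 in Het DMSO and 2.31 ± 0.353 in Het Hit 2 (SD, n = 4 each). Neither Het group overlapped with WT DMSO, which held for 2.45% of genes on the lower side in Het DMSO and 3.42% in Het Hit 2. Its differences from WT DMSO were -0.65 (standard error 0.20, adjusted p = 0.616, edgeR) and -0.50 (standard error 0.20, adjusted p = 1.00, edgeR). Pappa, which encodes that protease, was at 26.6 ± 13.7 CPM in Het DMSO and 20.4 ± 9.08 CPM in Het Hit 2, a difference of -0.38 (standard error 0.45). Insrr, an insulin receptor relative, had means of 2.34 CPM in WT DMSO, 1.34 in Het DMSO and 2.30 in Het Hit 2, and the Het groups overlapped. Its difference for Het DMSO minus WT DMSO was -0.80, or -0.47 without libraries 409 and 411. Plg, which encodes the protease plasminogen, was under 1 CPM in all 3 group means (0.224 in WT DMSO, 0.494 in Het DMSO and 0.414 in Het Hit 2). Ctsd, a lysosomal protease that can cut IGFBPs, was at 72.6, 86.0 and 74.1 CPM in these groups, with a difference for Het DMSO of 0.25, or 0.05 without 409 and 411. The other genes nearest to a call were Igfbp1 (0.366 and 0.649 CPM in Het DMSO and Het Hit 2), Stc1, a second stanniocalcin (0.242 and 0.936 CPM in WT DMSO and Het Hit 2), and Adam12, a protease of IGFBPs (6.46 and 5.38 CPM in the same groups), and their groups overlapped. Without 409 and 411 the Igfbp1 difference between the Het groups went from 0.85 to -0.01.

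All 42 genes listed for signalling below IGF1R were tested, and none was called in any comparison. The medians were 0.02, -0.07 and 0.02, and the first, for Het DMSO minus WT DMSO, was -0.04 without libraries 409 and 411. Grb10, an adaptor that dampens insulin and IGF1 receptor signalling, was at 48.1 ± 4.27 CPM in WT DMSO, 79.4 ± 42.4 in Het DMSO and 67.8 ± 17.3 in Het Hit 2. Both Het groups were above WT DMSO without overlap, as were 1.94% and 2.90% of all genes, and the difference for Het DMSO was 0.72 (standard error 0.29, adjusted p = 0.616, edgeR), or 0.31 without libraries 409 and 411. Rictor, a subunit of mTOR complex 2, was at 219 ± 13.3, 157 ± 54.1 and 203 ± 17.9 CPM in the same order, and Akt1, a kinase it acts on, was at 107, 145 and 119 CPM. Rictor in Het DMSO was below WT DMSO without overlap, as were 2.45% of all genes, and its difference was -0.48 (standard error 0.21, adjusted p = 0.616, edgeR), or -0.14 without libraries 409 and 411, where that of Akt1 went from 0.44 to 0.01. Pik3r3, a regulatory subunit of PI3 kinase, averaged 117 CPM in WT DMSO and 94.4 in Het Hit 2, and the kinase Akt2 averaged 108 and 86.6 CPM, without overlap for either, as for 3.42% of all genes on the lower side. The other genes nearest to a call overlapped: Eif4ebp1, which restrains translation (1.89 CPM in WT DMSO and 1.31 in Het DMSO), Map2k1, a MAP kinase kinase (113 in Het DMSO and 84.3 in Het Hit 2), and the FOXO transcription factors Foxo1 (41.3 and 59.9 in the same groups) and Foxo6 (0.933 in WT DMSO and 1.71 in Het Hit 2). Without 409 and 411, Het Hit 2 minus Het DMSO went from -0.43 to 0.05 for Map2k1, from 0.54 to 0.23 for Foxo1, from 0.37 to 0.01 for Rictor and from -0.27 to 0.14 for Akt1.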

How the data were processed

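Levels were measured by strand-specific RNA sequencing after depletion of ribosomal RNA, 1 library per mouse. The authors deposited raw counts of reads per gene, in the layout of the aligner STAR per the file headers. The submitters' processing notes name STAR 2.7.10a, FastQC 0.11.9 and the build GRCm39. Opposite-strand counts were used, since 5.21% to 6.47% of gene reads lay on the other strand. Reads outside any gene (44.7% to 54.6%), multimapping (4.08% to 7.01%), unmapped (3.70% to 6.53%) and ambiguous reads (0.761% to 1.33%) stayed out of library sizes and tests.

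Identifiers were named with GENCODE M21 (GRCm38), which matched 55141 of 55401 rows. The deposited tables hold no coordinates, so those printed are of GRCm38 and not of the build aligned to. Promoters were read from a RefSeq table of GRCm38.p6, whose starts can differ from GENCODE's.

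Genes were kept by filterByExpr (19378), scaled by TMM and fitted in 1 edgeR 4.0.16 quasi-likelihood model (R 4.3.3, limma 3.58.1) over all 12 libraries, with 1 coefficient per group. Tests were two-sided, with Benjamini-Hochberg adjustment over all genes and a threshold of 0.05. Standard errors and 95% intervals were derived from the F statistic. CPM are on TMM-scaled library sizes, and log2 CPM used a prior count of 2. Exact permutation tests used the 70 assignments of 8 libraries to 2 groups. DESeq2 1.42.0 and 21 other settings were tried as alternatives. The steps were tested on simulated data.

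The members and gene lists were chosen with earlier results of these data known, so a count over them is not independent evidence. Igfbp5, whose level chose the family, was left out of the tests of members and the counts of members called. It was kept in the check by Dixon's criterion and, for Het Hit 2 minus Het DMSO, in the count of fold changes under alternatives. Named were all members, in each list and comparison the 2 genes per direction with the smallest p, and the 5 genes most like Igfbp5. Animal numbers are taken as separate mice.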

Additional observations from a re-analysis of the deposited data

Results flagged for a closer look

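Within each group of 4 libraries, the highest and lowest values of every member were checked by Dixon's criterion, which compares the gap to the nearest library with the group's range. Of 30 such checks 2 met it, where chance gives about 1.5.

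Igfbp2 in Het Hit 2 library 410 was at 34.8 CPM, and the nearest library of that group at 11.1 CPM, a gap of 0.843 of the range. Library 410 had the highest choroid plexus sum of its group (958 CPM), and the part of choroid plexus RNA was not tested. Without it, Het Hit 2 minus Het DMSO for Igfbp2 was -1.74 on the log2 scale in place of -0.96. Without Het DMSO library 429, which had the highest choroid plexus sum of all (1954 CPM), the same difference was -0.52, and Het DMSO minus WT DMSO was 0.28 in place of 0.72. None of these passed the threshold.

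Igfbp5 in WT library 431 was at 161 CPM, and the nearest WT library at 192 CPM, a gap of 0.878 of the range. Library 431 was still above every Het library, of which the highest was at 113 CPM.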

How the results depend on the processing

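No member tested and no gene of either IGF list was called in any comparison under 22 alternative settings, nor any member at an adjusted p of 0.1. Igfbp5 ranged from -1.55 (without 411) to -1.20 (without 409) for Het DMSO minus WT DMSO and from -1.41 (without 430) to -1.25 (without 422) for Het Hit 2 minus WT DMSO. Of 616 member fold changes under alternatives, 46 had the opposite sign to the one reported, and none of those of the members tested was called. Both numbers include Igfbp5 for Het Hit 2 minus Het DMSO only. Igfbp4 for Het DMSO minus WT DMSO ranged from 0.63 to 0.98, with a smallest adjusted p of 0.136 (DESeq2).

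The number of all genes called moved far more than the members. For Het DMSO minus WT DMSO it was 1, and 43 with DESeq2, 98 with limma and library quality weights, 18 without libraries 409 and 411, 4 without 409, 9 without 411, and 0 without 429, with only the 2 groups compared, or with only libraries without Xist. For Het Hit 2 minus WT DMSO it was 1, and 24 with DESeq2, 221 with quality weights, 90 without 409 and 411, 5 without 409, 14 without 411, 2 without 429, 54 with only the 2 groups compared, 4 without a filter, 2 with unstranded counts, and 0 with only libraries without Xist or without any 1 WT or Het Hit 2 library. For Het Hit 2 minus Het DMSO it was 0 throughout. The cause was not tested. Low counts limit Igf2, with 4 reads in library 411.

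No paired analysis was possible because the animal numbers do not recur between groups.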
